A study of Arabidopsis thaliana with 12 samples.

Results

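Sulfate withdrawal in shoots of Col-0, the laboratory wild type of Arabidopsis thaliana, was examined by RNA sequencing in 6 libraries of the 12 in the series. The 3 libraries with sulfate came from seedlings on plates with 1.5 mM MgSO4, and the 3 without sulfate from seedlings on plates where 1.5 mM MgCl2 took its place, so magnesium was matched while chloride was higher. All seedlings were 10 days old when shoots were cut off with a blade, and the labels name the medium as Murashige and Skoog salts at reduced strength on washed agar, under long days. No transfer between plates is described in them, and sulfate withdrawal here stands for growth on plates without the sulfate salt. The other 6 libraries are shoots of cdk8-1, a mutant of the Mediator kinase CDK8, under the same 2 supplies, 3 libraries each. They shared the estimate of spread here and served for a test of whether the response differed between the genotypes. The members are the 19127 of 32833 loci in the table with a mean TPM of at least 1 over the 12 libraries. TPM divides the reads of a gene by its length and scales each library to a common total, so levels can be compared between genes. The deposited column of Col-0 with sulfate replicate 3 sums to 1004125 TPM, above the common total of the other 11, and all were used as deposited.

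Plants take up sulfate through SULTR transporters, activate it with ATP sulfurylase, reduce it with APS reductase and sulfite reductase, and fix the sulfide in cysteine. Cysteine feeds methionine, S-adenosylmethionine and glutathione, and in Brassicaceae such as Arabidopsis much sulfur is also held in glucosinolates. Under sulfur starvation the transcription factor SLIM1 (EIL3) is known to raise sulfate transporters, the LSU and SDI genes and enzymes that release sulfur from glutathione and glucosinolates. Leaf chloroplasts hold a large share of leaf protein, and that protein is a known source of nutrients when leaves are recycled.

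The libraries with sulfate held 19491715 to 20470389 reads in genes and those without sulfate 19547315 to 25274344. For a transcript 1 kilobase long, each read was worth 0.0710 to 0.0921 TPM. Libraries of the same supply correlated across loci at r = 0.983 to 0.993, and those of different supply at 0.649 to 0.672. The first principal component of the 6 libraries held 96% of their variance. The libraries of a group are not stated to come from separate plates or seedling batches, and p-values may thus rest on technical spread alone. All 12 carry the same batch label. Of 10 root markers, 2 reached 1 TPM on average. The root-enriched beta-glucosidase PYK10 stood at 736, 818 and 675 TPM with sulfate and 316, 303 and 341 without, and the summed level of all 10 markers was 682 to 819 and 306 to 346 TPM. In whole shoots, fewer cells of a type and less RNA per cell cannot be told apart.

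Without sulfate, 10736 loci were higher and 5512 lower in limma on log2(TPM + 1) at an adjusted p under 0.05 (56.1% and 28.8% of the loci tested, together 84.9%). At least 2-fold changes were called for 5789 higher loci (30.3%) and 3314 lower loci (17.3%). The 3 and 3 libraries did not overlap at 10806 loci that were higher (56.5%) and 5546 that were lower (29%). Changes of at least 8-fold on the deposited scale were called upward at 882 loci and downward at 574, and changes of at least 128-fold at 28 and 5. At 56 loci all 3 libraries with sulfate were at 0 while each of the 3 without sulfate was at 5 TPM or more, and 9 loci showed the reverse. TPM are shares of a library's total, and the median locus was higher by 0.46 on the log2 scale. After median-of-ratios scaling, which removes most of that shift (0.05), 8011 loci were higher (41.9%) and 7488 lower (39.1%), and 275 loci had a call in the opposite direction. Changes below are therefore given as log2 differences of TPM + 1 relative to the median locus, while calls are on the deposited scale. On that relative scale the balance of large changes was the other way, with 3538 loci higher and 4600 lower by at least 2-fold, 613 and 918 by at least 8-fold, and 15 and 17 by at least 128-fold. Values in brackets after 2 sets of levels, such as those of LSU1, are this difference ± its SE. Counts after scaling follow where they differ. With most loci called, the size of a change says more than the call itself. So does how the members of a list stand against 56.1% and 28.8%, or 41.9% and 39.1% for counts after scaling.

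The transcript pool itself became less concentrated. With sulfate the 10 most abundant loci held 13.7%, 13.1% and 13.7% of all TPM in replicates 1 to 3, and without sulfate 4.40%, 4.44% and 4.46%. The 100 most abundant loci held 34.1% to 35% with sulfate and 15.4% to 15.6% without. To make up 50% of TPM took 434 to 468 loci with sulfate and 1225 to 1244 without. Loci at 1 TPM or more numbered 17996 to 18097 and 18485 to 18503. The groups did not overlap in any of these measures, with an exact two-sided permutation p of 0.1 for each, the smallest that 3 against 3 libraries can give. Of the 100 most abundant loci, 95 were shared by all 3 libraries with sulfate and 93 by all 3 without, and 11 were on the list in all 6.

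**Figure D1:**
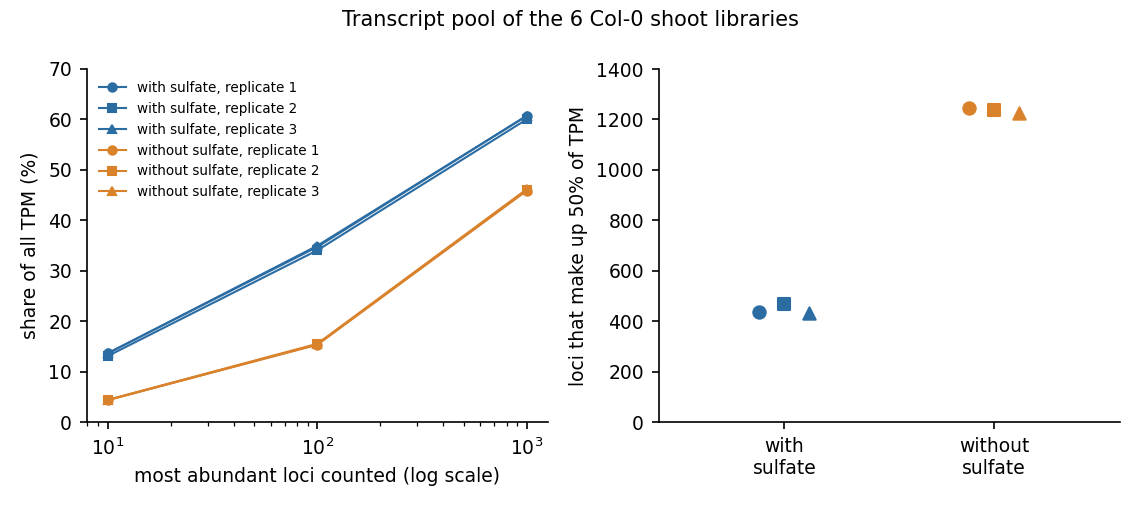
Left, the share of all TPM (%) held by the 10, 100 and 1000 most abundant loci of each Col-0 library against that number (log axis), and right, the number of loci that make up 50% of TPM. Points are single libraries, marked by replicate, and lines join those of 1 library. The 3 libraries without sulfate lie together, below those with sulfate on the left and above them on the right.

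Loci that lost level lost 507527 TPM in all, 50.8% of the pool, and the loss lay in few genes. The 10 largest losers, all of them light-harvesting, Rubisco small-subunit or Rubisco activase genes, made up 25.2% of it, while the 10 largest gainers made up 7.25% of the gain. CAB1 (AT1G29930), a chlorophyll a/b-binding protein of photosystem II, went from 32158, 32097 and 34686 TPM to 2460.3, 2696 and 2687. RBCS1A (AT1G67090), a small subunit of Rubisco, went from 16178, 15656 and 15802 TPM to 845, 849 and 870.2. The groups were far apart for both, and copies of CAB and RBCS are nearly identical, so how reads were split among them is uncertain. LHCA4, LHCA1, LHCB5, LHCB3 and RCA were among the other losers, with relative log2 differences of -4.18 to -5.15. LHCB3 has 14.98% of its exon length overlapped by a gene on the other strand, a limit described below.

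The largest gain of any locus was that of PRXCB (AT3G49120), a secreted class III peroxidase, from 55.4, 78.7 and 76.6 TPM to 7088, 7912 and 7537. ADC2 (AT4G34710), arginine decarboxylase, the first enzyme of putrescine synthesis, went from 171, 186 and 162 to 4858, 4400.2 and 4912 TPM. Both were low to moderate in every library with sulfate and among the most abundant transcripts in every library without. MT2B (AT5G02380), a metallothionein, was already at 3147, 3246 and 3082 TPM with sulfate and reached 7647, 7332 and 7408. EXT4 (AT1G76930), a cell wall extensin, was uneven with sulfate at 202, 505 and 228 TPM and reached 3062, 3421 and 3764. XTH24 (AT4G30270), a xyloglucan endotransglucosylase that remodels walls, went from 152, 348 and 327 to 2537, 2832 and 3001 TPM. CAT3 (AT1G20620), catalase 3, went from 1171, 1261 and 1365 to 3942, 3915 and 3405 TPM. The photorespiratory CAT2 (AT4G35090) fell from 546 to 81.7 TPM on average. The polyubiquitin UBQ10, often used as a reference gene, gained as well, from 1122, 1236 and 1229 to 4947, 5037 and 4679 TPM.

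Among the 15 largest rises were genes barely read with sulfate that became abundant without it. AT4G12735, an uncharacterized gene, was at 0 in all 3 libraries with sulfate and at 290.2, 316 and 349 TPM without. AT2G04050, a MATE efflux gene, went from 0.568, 0.372 and 0.989 TPM to 660.2, 581 and 669, and the close copy AT2G04070 from 0.374, 0.348 and 0.288 to 398, 393 and 394. AIG1 (AT1G33960), a GTP-binding protein known from bacterial resistance, went from 0.816, 0.773 and 0.327 to 576, 553 and 513 TPM. These loci were close to silent with sulfate in every library. NIT2 (AT3G44300), a nitrilase with the close copy NIT1, went from 1.51, 5.34 and 4.03 to 1599, 1794 and 1986 TPM, a relative log2 difference of 8.24 ± 0.31 (SE, adjusted p = 3.38e-11). BCA3 (AT1G23730), a beta carbonic anhydrase, went from 4.96, 4.19 and 4.65 to 1995, 1974 and 2007 TPM, by 8.02 ± 0.16 (adjusted p = 2.32e-13), with 16.6% of its exons overlapped. ELI3-2 (AT4G37990), a cinnamyl-alcohol-dehydrogenase-type enzyme of defense, went from 0, 0.315 and 0.0435 to 246, 279 and 342 TPM, and the germin-like GLP9 (AT4G14630) from 0.679, 0.181 and 0.350 to 265, 311 and 276. The pathogenesis genes PR1 and BGL2 (PR2, a beta-1,3-glucanase) reached 1193, 1633 and 1503 and 461, 463 and 537 TPM. The remaining ones were BGLU30, BGLU28, AT1G26390, AT2G18193 and PRX52, each higher by at least 7.02 on the relative log2 scale.

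Several of the 15 largest falls were of chloroplast genes. CA1 (AT3G01500), the main chloroplast carbonic anhydrase, went from 1388, 1379.6 and 1414 TPM to 2.58, 2.48 and 3.89. With sulfate CA1 was thus the more abundant of these carbonic anhydrases, and without sulfate BCA3 was. LHCB2.3 (AT3G27690) went from 1691, 1405 and 1515 to 1.75, 1.63 and 1.41 TPM. This was the largest fall of all in log2(TPM + 1), a relative -9.67 ± 0.18 (adjusted p = 3.3e-13 in limma). A gene on the other strand overlaps 40.6% of its exons. Reads in such overlaps appear to be missing from the table, since 333 of 345 nuclear genes (96.5%) fully covered in this way are at 0 in all libraries, against 2699 of 20771 (13.0%) with no overlap. The levels of overlapped genes are then too low in both groups. FBA5 (AT4G26530), an aldolase, went from 364, 311 and 342 to 0.240, 0.332 and 0.320 TPM. GER3 (AT5G20630), a germin, went from 346, 340.3 and 284 to 2.99, 1.096 and 1.197, and MSRB6 (AT4G04840), which reduces oxidized methionine, from 113, 106 and 110.5 to 0.0856, 0 and 0. The gene AT3G16670, annotated in the pollen allergen and extensin family, was at 183, 173 and 133 TPM with sulfate and at 0 in all 3 libraries without. The thionin THI2.2, a small cysteine-rich defense protein, was at 109, 96.0 and 109 TPM with sulfate and at 0 in all 3 libraries without. The thionin gene AT1G66100 went from 156, 113 and 186 to 0.804, 0.186 and 0.215 TPM. TGG2, FRO6, AT5G48490, AT2G10940, GASA6 (22.6% overlap), AT1G09750 and LHB1B1 made up the 15. In the ratio of mean TPM the myrosinase TGG2 fell further than LHCB2.3, from 607 to 0.0516 TPM.

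All 11 members of the sulfur limitation core rose (10 after scaling), where 56.1% of all loci did (41.9% after scaling). Their median was 5.15 relative to all loci, and their summed level went from 218 to 764 TPM with sulfate to 9264 to 9931 without. LSU1 (AT3G49580), a small protein of unsettled function named for its response to low sulfur, was at 35.7, 6.46 and 5.77 TPM with sulfate and 1331, 1217 and 1174 without (6.20 ± 0.64, adjusted p = 4.84e-07). SDI1 (AT5G48850), known as a repressor of glucosinolate synthesis under sulfur deficiency, was at 49.0, 11.8 and 6.86 and 1499.5, 1326 and 1314 TPM. SHM7 (AT1G36370), a serine hydroxymethyltransferase, was at 143, 88.4 and 53.2 and 1122, 1033 and 1046 TPM. GGCT2;1 (AT5G26220), a gamma-glutamyl cyclotransferase that degrades glutathione, was at 22.5, 10.8 and 10.01 and 896, 809 and 869 TPM. In each of these the groups were separate, but the 3 libraries with sulfate differed among themselves in a common order, with replicate 1 the highest. Replicate 1 with sulfate was the highest of the 3 for 11 of 11 members, and replicate 3 was the lowest for 10 of 11. The summed level was 764, 377 and 218 TPM in replicates 1, 2 and 3, against 9931, 9264 and 9888 TPM without sulfate. The cdk8-1 libraries with sulfate showed 643, 321 and 188 TPM in the same numbering. SDI1, LSU1, LSU2 and APR1 were among the 10 most uneven loci with sulfate of those at 10 TPM or more, as were AT1G04770, of the same family as SDI1 and at 53.6, 25.3 and 12.7 TPM with sulfate (27.4% overlap), and DOGT1 (AT2G36800), a glucosyltransferase, at 17.9, 8.85 and 4.38 TPM. The libraries without sulfate were even for these genes. BGLU28 (AT2G44460), a beta-glucosidase known to cleave glucosinolates under sulfur deficiency, was even with sulfate as well, at 1.796, 1.48 and 1.55 TPM with sulfate and 2463, 2295 and 2681 without (9.43 ± 0.14, adjusted p = 6.36e-14).

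The 3 APS reductases of the core were higher by 2.38 ± 0.49, 0.55 ± 0.26 and 2.01 ± 0.41 in APR1, APR2 and APR3. APR1 (AT4G04610) was at 178, 81.9 and 41.5 TPM with sulfate and 593, 562 and 692 without, and APR3 (AT4G21990) at 203, 109 and 58.8 and 598, 584 and 648. APR2 (AT1G62180) was at 69.2, 48.0 and 34.1 and 91.1, 103 and 103 TPM, with the groups apart as deposited. Its call was lost after median-of-ratios and quantile scaling (adjusted p = 0.0707 and 0.0748 in limma). The exons of APR2 are overlapped over 46.4% of their length.

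**Figure D2:**
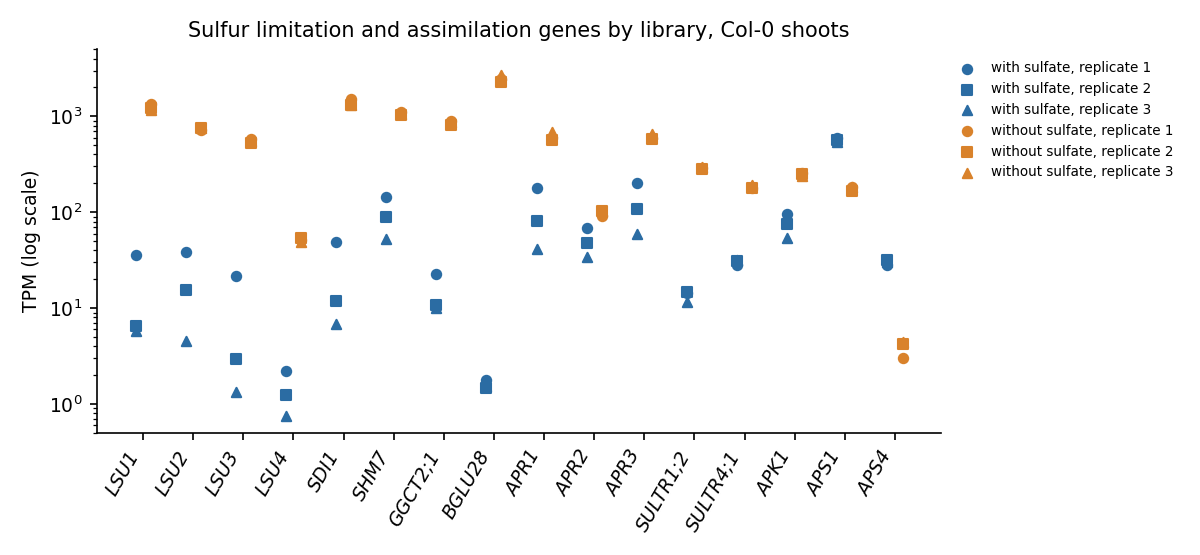
TPM (log axis) of the 11 sulfur limitation genes and of 5 transport and activation genes in each Col-0 library, with marks for replicates 1 to 3. The libraries with sulfate spread widely for LSU1 to SDI1 with replicate 1 on top, those without sulfate lie together, and APS1 and APS4 run the other way.

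The bases before the transcription start of 5 core members are shown as examples. GAGAC, the centre of the sulfur-responsive element known from SULTR1;1, is a motif tied to this response. The members shown hold it more often than the core as a whole, where it lay in 5 of 11 promoters (45.5%) of the wider window below. The sequences are RefSeq TAIR10.1, 250 bases that end just before the annotated start, on the gene's strand, with GAGAC or its reverse complement GTCTC in capitals. They belong to LSU1 at chr3:18375941-18376190 (minus strand), LSU4 at chr5:8441365-8441614 (minus), SDI1 at chr5:19807854-19808103 (minus), BGLU28 at chr2:18346056-18346305 (plus) and GGCT2;1 at chr5:9164885-9165134 (minus).
LSU1: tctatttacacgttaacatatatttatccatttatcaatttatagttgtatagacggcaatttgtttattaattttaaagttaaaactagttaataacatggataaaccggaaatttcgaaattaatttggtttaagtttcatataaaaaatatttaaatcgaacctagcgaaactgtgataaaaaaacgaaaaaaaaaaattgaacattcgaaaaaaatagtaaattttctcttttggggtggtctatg
LSU4: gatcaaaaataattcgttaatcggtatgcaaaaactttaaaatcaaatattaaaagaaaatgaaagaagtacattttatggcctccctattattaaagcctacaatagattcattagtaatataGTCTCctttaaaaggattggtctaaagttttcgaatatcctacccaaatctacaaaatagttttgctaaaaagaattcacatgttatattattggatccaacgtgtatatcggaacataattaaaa
SDI1: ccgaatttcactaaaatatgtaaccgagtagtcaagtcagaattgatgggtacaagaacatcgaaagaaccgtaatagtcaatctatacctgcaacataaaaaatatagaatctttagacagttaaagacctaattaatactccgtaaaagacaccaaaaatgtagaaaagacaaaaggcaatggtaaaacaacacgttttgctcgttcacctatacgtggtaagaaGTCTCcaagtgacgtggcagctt
BGLU28: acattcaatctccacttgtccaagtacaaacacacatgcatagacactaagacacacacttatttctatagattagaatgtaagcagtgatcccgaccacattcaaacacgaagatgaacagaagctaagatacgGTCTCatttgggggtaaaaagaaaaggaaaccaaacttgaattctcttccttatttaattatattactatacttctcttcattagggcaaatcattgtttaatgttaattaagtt
GGCT2;1: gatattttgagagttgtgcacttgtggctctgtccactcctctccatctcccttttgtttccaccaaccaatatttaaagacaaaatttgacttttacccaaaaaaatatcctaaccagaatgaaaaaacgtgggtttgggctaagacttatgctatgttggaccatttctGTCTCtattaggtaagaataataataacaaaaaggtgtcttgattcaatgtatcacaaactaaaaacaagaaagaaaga
The motif starts at -126 in LSU4, -23 in SDI1, -115 in BGLU28 and -79 in GGCT2;1, counted from -1 at the base before the start, and is not in the LSU1 window. In the wider window of 250 bases before to 50 after the start, GAGAC on either strand lay in 5 of 11 core promoters (45.5%), 7 of 15 of the largest rises (46.7%) and 7 of 15 of the largest falls (46.7%). It lay in 32.3% of the 19126 promoters of tested loci. The W-box TTGACC, bound by WRKY factors, lay in 2 of the 15 rises (13.3%), in 0 of the 15 falls and in 14.5% of all. The G-box CACGTG lay in 2 of 15 of each (13.3%) and in 8.75% of all, and the evening element AAAATATCT in 0 of the rises, 1 of the falls (6.67%) and 3.02% of all. A match describes these letters in this window only.

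Sulfate transporters were mostly higher, while the first enzymes of assimilation split. Of 11 transporters tested, 9 rose and 2 fell (7 and 2 after scaling). SULTR1;2 (AT1G78000), known for uptake at the root, was at 14.4, 14.7 and 11.5 TPM with sulfate and 289, 279 and 295 without (3.86 ± 0.11). SULTR4;1 (AT5G13550), which releases sulfate from vacuoles with SULTR4;2 (AT3G12520), went from 30.3 ± 1.68 TPM (SD, n = 3) to 184 ± 9.09, and SULTR4;2 from 18.4 ± 1.07 to 101 ± 10.1. SULTR2;1 (AT5G10180) and SULTR3;1 (AT3G51895), known for long-distance transport and for import into chloroplasts, fell, by -1.23 and -1.28 on the relative scale. The calls of SULTR3;2 and SULTR3;3 were lost after scaling. In the list of activation, PAPS formation and sulfite handling, 4 of 11 rose and 3 fell (2 and 8 after scaling). Of all loci 56.1% rose and 28.8% fell (41.9% and 39.1% after scaling). The 3 of the list that fell as deposited were ATP sulfurylases, APS1 (AT3G22890) from 598, 563 and 537 to 183, 168 and 185 TPM (-2.12 ± 0.07), APS2 from 46.7 ± 9.67 to 11.2 ± 2.15 and APS4 from 28.3, 32.1 and 30.5 to 3.03, 4.26 and 4.40. APK1 (AT2G14750), an APS kinase of the branch that makes PAPS, rose from 96.6, 75.2 and 53.5 to 258, 251 and 237 TPM. Sulfite reductase SIR (AT5G04590) was at 247 ± 16.0 and 394 ± 28.9 TPM, a relative difference of 0.21. Sulfite oxidase SOX (AT3G01910), called higher on the deposited scale at 116 ± 5.76 and 147 ± 0.892 TPM, was called lower after scaling (-0.11).

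In methionine and S-adenosylmethionine metabolism 10 of 21 rose and 5 fell (10 and 11 after scaling). Among all loci tested 56.1% rose and 28.8% fell (41.9% and 39.1% after scaling). MGL (AT1G64660), methionine gamma-lyase, which breaks methionine down, went from 19.7, 15.7 and 18.5 to 550.0, 542 and 660.2 TPM (4.49 ± 0.11, adjusted p = 9.9e-13). CGS1 (AT3G01120), the first committed enzyme of methionine synthesis, went from 239.9, 212 and 171 to 123, 123 and 128 TPM, lower in all 3 libraries. HMT3, a homocysteine methyltransferase, went from 9.12 ± 0.870 to 0.430 ± 0.312 TPM. The S-adenosylmethionine synthetase MTO3 rose from 308 ± 9.36 to 1057 ± 65.4 TPM, with 29.7% of its exons overlapped. Of the S-adenosylhomocysteine hydrolases, SAHH2 fell from 153 ± 16.9 to 30.9 ± 3.49 TPM. Of 10 genes of glutathione synthesis, reduction and breakdown 7 rose and 1 fell (5 and 3 after scaling). Breakdown enzymes led the rises, GGCT2;1 (above) and GGCT2;2 (AT4G31290), the latter from 103 ± 11.98 to 351 ± 20.4 TPM with 11.7% overlap. The glutathione reductases parted, GR1 of the cytosol rising from 64.5 ± 6.02 to 188 ± 7.21 TPM and GR2 of the organelles falling from 163 ± 0.904 to 76.3 ± 1.84. GSH1, the first enzyme of glutathione synthesis, did not pass, at 156 and 165 TPM on average.

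Thiol-dependent enzymes moved in both directions within a family. Of 24 tau class glutathione transferases, which conjugate glutathione to reactive compounds, 15 rose and 7 fell, with a median of 2.09 over the family. These shares are near the 56.1% and 28.8% of all loci. GSTU24 (AT1G17170) went from 1.07, 0.569 and 0.893 to 171, 166 and 208 TPM (6.17 ± 0.17) and GSTU9 (AT5G62480) from 0.622, 0.414 and 0.720 to 141, 136 and 147. GSTU27 (AT3G43800) went from 46.9, 49.3 and 45.5 to 558, 559.5 and 549.6 TPM, with little spread in either group. GSTU20 (AT1G78370) went the other way, from 542, 472 and 408 to 52.0, 40.4 and 44.7 TPM (-3.80 ± 0.13), and GSTU18 (AT1G10360) from 70.9, 63.8 and 67.9 to 3.92, 4.79 and 4.25. Of 15 CC-type glutaredoxins, small plant-specific redox proteins that bind TGA transcription factors, 3 rose and 11 fell. GRX480 (AT1G28480), known from the salicylate response, went from 0.681, 0.311 and 0.501 to 28.6, 28.1 and 36.3 TPM, and GRXS13 (AT1G03850) from 11.6, 13.2 and 13.8 to 83.6, 90.3 and 88.9. AT3G62950 was at 15.6, 16.6 and 14.5 TPM with sulfate and AT3G21460 at 19.2, 11.3 and 9.93, and both were at 0 in all 3 libraries without. Members of this family thus moved from and to near silence in both directions. Of 8 thioredoxins h, reductants of protein disulfides, 7 rose and 1 fell (6 and 1 after scaling). TRXH5 (AT1G45145), known to reduce the salicylate receptor NPR1, went from 15.2, 12.3 and 18.4 to 299.7, 329 and 334 TPM (3.86 ± 0.12). TH8 (AT1G69880) went from 0.101, 1.29 and 0.414 to 192, 189.5 and 239.

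Genes for small cysteine-rich proteins did not move as a group, with 4 of 11 higher and 5 lower. The shares of all loci tested were 56.1% higher and 28.8% lower (41.9% and 39.1% after scaling). The metallothioneins MT2A (AT3G09390) and MT1C rose, MT2A from 275, 351 and 327 to 2203, 2185 and 2471 TPM. The metallothionein MT3 fell, from 1110 to 508 TPM on average. The lipid transfer protein LTP1 (AT2G38540) fell from 1267, 1266 and 1234 to 239, 222 and 205 TPM, while LTP2 rose from 67.4 to 129 on average. The defensin PDF2.2 fell from 151 ± 18.3 to 34.7 ± 1.98 TPM and the defensin PDF2.3 from 80.3 ± 5.13 to 19.4 ± 2.83. Of the 10 genes for sulfolipid, galactolipid and lipid remodelling, 3 rose and 5 fell (3 and 6 after scaling). UGP3 (AT3G56040), which makes UDP-glucose for the sulfolipid head group, fell from 65.7, 67.1 and 52.0 to 6.22, 4.98 and 5.30 TPM (-3.72 ± 0.11), and SQD1 (AT4G33030), the next step, from 81.2 ± 9.93 to 35.4 ± 0.331. The extraplastidic galactolipid synthase DGD2 and the phospholipases PLDP2 and NPC4 rose, to 20.3 ± 2.16, 16.4 ± 1.696 and 4.75 ± 0.390 TPM. Of 11 myrosinases and ER-body genes, 4 rose and 6 fell (2 and 6 after scaling). The ER-body glucosidase BGLU18 (AT1G52400) fell from 178, 143 and 160.3 to 8.32, 19.9 and 11.1 TPM and the myrosinase TGG1 from 2392 ± 176 to 504 ± 33.3, while BGLU30 went from 0.172, 0.183 and 0.212 to 3098, 3144 and 3446 TPM.

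The sulfur amino acids that the pool would encode were summed, each protein-coding transcript weighted by its TPM. Cysteine was 1.41% ± 0.00844 of residues with sulfate and 1.58% ± 0.00349 without (SD, n = 3), so the pool without sulfate encoded more cysteine per residue. Methionine was 2.36% ± 0.00304 and 2.41% ± 0.00199. In both, the 3 libraries without sulfate lay above the 3 with it, with an exact permutation p of 0.1. The mean encoded protein grew from 356 to 398 residues. Without the 100 most abundant loci the difference in cysteine was 0.0393 percentage points in place of 0.173, and without photosynthesis-related loci it was 0.0281. The difference in mean length without the 100 was 3.52 residues (exact permutation p = 0.2). Methionine differed by 0.0496 percentage points over all loci and by 0.0903 without the 100. The largest losses of encoded cysteine were those of RBCS1A, RCA and RBCS3B, and the largest gains those of ADC2, PRXCB and MT2B, whose protein is 18.18% cysteine. The median gene with a rise of at least 2-fold encoded 1.55% cysteine and that with a fall 1.56%, against 1.58% for all loci tested. With each gene counted once, whatever its level, both medians thus lay slightly below that of all loci. The difference between them was not tested.

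**Figure D3:**
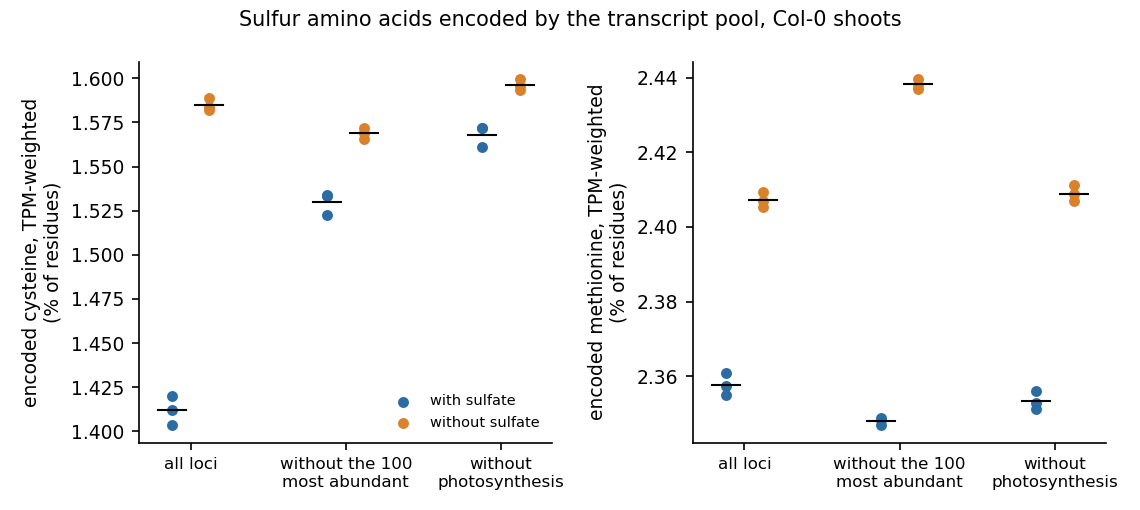
Cysteine (left) and methionine (right) as % of the residues encoded by the transcript pool of each Col-0 library, over all loci, without the 100 most abundant loci and without photosynthesis-related loci. Points are libraries and bars are group means, and the axes do not start at 0. The gap in cysteine shrinks from 0.173 to 0.0393 and 0.0281 percentage points.

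Photosynthetic carbon metabolism fell as a block. All 14 Calvin cycle and all 14 photorespiration genes fell, by medians of -3.88 and -3.18, where 28.8% of all loci fell. Their summed levels went from 22504 to 24293 TPM down to 2184 to 2307, and from 11459.9 to 11885 down to 1594 to 1735. Phosphoribulokinase PRK (AT1G32060) went from 1165, 1138 and 1115 to 73.7, 72.8 and 68.6 TPM (-4.43 ± 0.06), the glyceraldehyde-3-phosphate dehydrogenase GAPA-2 (AT1G12900) from 1665, 1553 and 1501 to 66.4, 62.9 and 68.8 and Rubisco activase RCA (AT2G39730) from 8786, 7978 and 8042 to 455, 430.3 and 426. The mitochondrial serine hydroxymethyltransferase of photorespiration, SHM1 (AT4G37930), fell from 1822, 1865 and 1774 to 129.7, 122 and 123 TPM, while SHM7 of the sulfur core rose (above). Of 20 chlorophyll synthesis genes, 19 fell, with a median of -2.97. The cyclase CRD1 (AT3G56940, 12.9% overlap) went from 2463, 2335 and 2369.5 to 215, 196 and 186 TPM (-4.04 ± 0.07) and the divinyl reductase PCB2 (AT5G18660) from 133, 127 and 111 to 5.46, 5.04 and 4.77. HEMA2 (AT1G09940), the glutamyl-tRNA reductase known from non-green tissue, rose from 22.6, 24.0 and 27.4 to 76.5, 83.5 and 89.7. Chlorophyll breakdown showed 8 of 12 higher and 2 lower (7 and 3 after scaling). All loci tested showed 56.1% higher and 28.8% lower (41.9% and 39.1% after scaling). The magnesium dechelatase NYE1 (AT4G22920), which starts chlorophyll breakdown, went from 11.3, 12.2 and 12.7 to 137, 132 and 134 TPM (2.92 ± 0.06), and its relative NYE2 (AT4G11910) from 0.612, 1.305 and 0.756 to 51.6, 55.1 and 56.1. The chlorophyllase CLH1 fell from 49.9 ± 16.5 to 3.52 ± 1.703. Of 20 regulators of chloroplasts and light responses 15 fell and 1 rose (17 and 1 after scaling). The plastid sigma factor SIGD (13.8% overlap) fell from 43.4 ± 1.4599 to 2.12 ± 0.830 TPM and the phytochrome-interacting factor PIF4 from 127 ± 10.3 to 28.2 ± 2.06. HY5, a promoter of light responses, rose from 5.77 ± 1.11 to 16.4 ± 2.36 TPM.

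**Figure D4:**
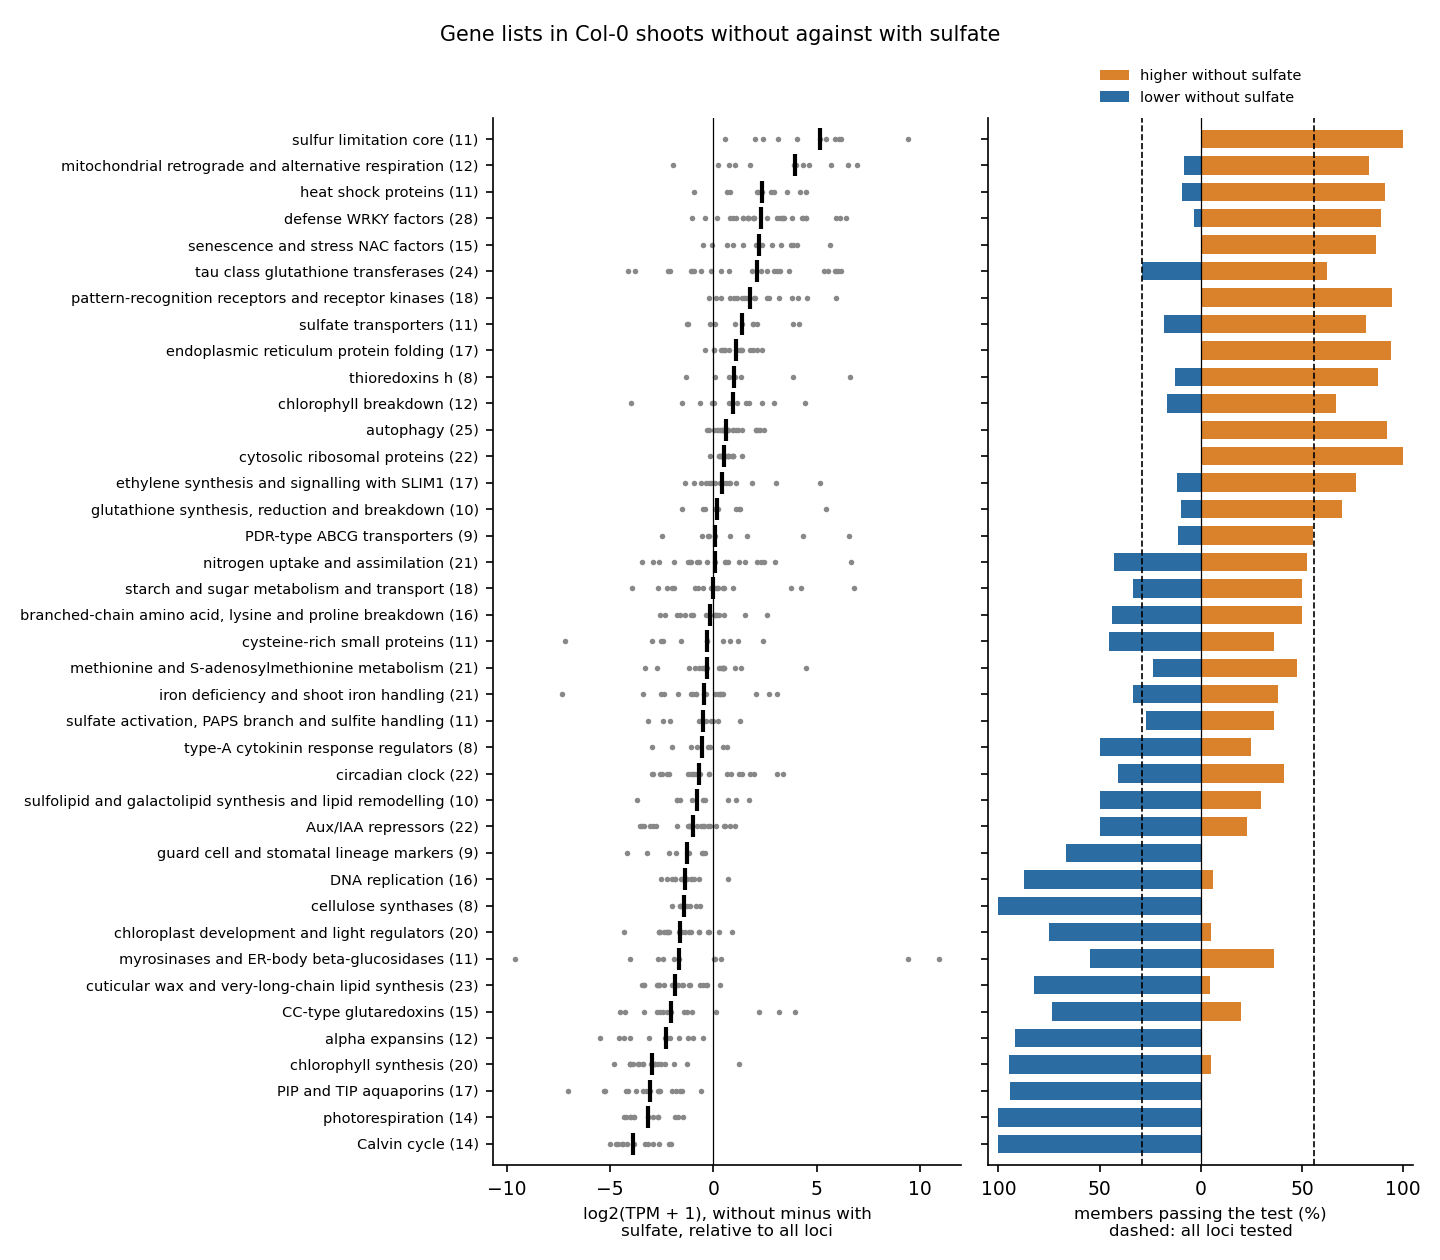
Left, log2(TPM + 1) differences without minus with sulfate, relative to the median locus, of every tested member (grey) and the median (black) of each list with 8 or more tested members (number in brackets). Right, the share of members (%) called higher or lower in limma on the deposited scale, with the shares of all 19127 loci dashed. Calvin cycle and photorespiration lie lowest, and the sulfur limitation core and mitochondrial retrograde genes highest.

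Genes of growth fell widely, where 56.1% of all loci tested rose and 28.8% fell (41.9% and 39.1% after scaling). Of 16 DNA replication genes 14 fell and 1 rose (15 and 1 after scaling), the helicase subunit MCM7 (AT4G02060) from 20.4, 17.9 and 15.8 to 3.35, 3.96 and 3.08 TPM (-2.55 ± 0.13). Of 12 alpha expansins, which loosen cell walls, 11 fell (12 after scaling), EXPA8 (AT2G40610) from 109, 52.0 and 41.8 to 1.003, 0.765 and 1.07 TPM and EXPA3 (AT2G37640) from 42.1, 41.6 and 34.5 to 1.69, 0.826 and 1.51. All 8 cellulose synthases fell, by a median of -1.42, from CESA8 of secondary walls at -2.02 (16.8% overlap) to CESA1 at -0.66, whose groups overlapped and whose call was lost without any of 5 of the 6 libraries. Of 17 aquaporins of the plasma membrane and vacuole 16 fell (17 after scaling). The vacuolar DELTA-TIP (AT3G16240, 13.96% overlap) went from 1297, 1879.9 and 2265 to 16.5, 16.7 and 18.7 TPM and PIP1C (AT1G01620) of the plasma membrane from 536, 647 and 791 to 19.5, 21.999 and 25.8 (-5.26 ± 0.15). Of 23 genes of wax and very-long-chain lipid synthesis 19 fell and 1, KCS4, rose (22 and 1 after scaling). The acyl-CoA synthetase LACS1 (AT2G47240), of wax and cutin synthesis, went from 67.6, 79.9 and 75.4 to 8.35, 9.09 and 9.98 TPM. In contrast, all 22 cytosolic ribosomal protein genes were higher on the deposited scale (21 higher and 1 lower after scaling), with a median of 0.53. RPS5B (AT2G37270) went from 125, 119 and 119.8 to 339, 309.9 and 334 TPM (0.97 ± 0.05) and RPL23AA (AT2G39460) from 184, 161 and 159.8 to 448, 419 and 411.

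Markers of cell types in the shoot moved by different amounts, where 56.1% of all loci tested rose and 28.8% fell (41.9% and 39.1% after scaling). The 4 epidermis markers all fell, from a summed 657 to 705 TPM to 87.2 to 96.4. PDF1 (AT2G42840), a protein of the outermost cell layer, went from 320.5, 344 and 365 to 3.55, 1.91 and 8.07 TPM (-6.58 ± 0.29). The homeodomain factors of epidermal identity fell less, ATML1 (AT4G21750) from 54.7 ± 2.51 to 13.7 ± 1.14 TPM and PDF2 (AT4G04890) from 55.8 ± 4.62 to 12.6 ± 0.540. Of 9 guard cell and stomatal lineage markers 6 fell (8 after scaling), and those that act early in the lineage fell most, SPCH (AT5G53210) from 10.1, 8.08 and 7.01 to 0.407, 0.254 and 0.522 TPM (-3.20 ± 0.15) and TMM (AT1G80080) from 23.0, 28.2 and 26.0 to 0.968, 1.11 and 1.05. The guard cell channel KAT1, at 13.8 and 12.7 TPM on average, and the kinase HT1, at 3.87 and 3.95, did not pass on the deposited scale. The trichome regulator GL1 fell from 3.53 ± 0.280 to 0.0753 ± 0.130 TPM and GL2 from 7.77 ± 1.99 to 1.37 ± 0.350. Of 5 phloem markers 2 rose and 3 fell, with SUC2 at 209.9 ± 20.9 and 153 ± 13.6 TPM, and their summed level went from 370 to 407 TPM to 281 to 305. Of 6 meristem markers 2 were listed at 0 throughout, CLV1 (AT1G75820) fell from 37.5, 43.2 and 43.7 to 7.29, 9.21 and 7.94 TPM and KNAT1 rose from 2.81 ± 0.497 to 6.23 ± 0.467. Whether the share of these cells in the shoots moved with the growth genes was not tested.

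Genes of recycling and stress rose more often than the loci tested as a whole, of which 56.1% rose and 28.8% fell (41.9% and 39.1% after scaling). Of 25 autophagy genes 23 rose and 0 fell (20 and 1 after scaling). Their median was 0.59 on the relative scale. On the deposited scale 15 rose by at least 2-fold, where 30.3% of all loci did. ATG8A (AT4G21980), a ubiquitin-like tag of the autophagosome, went from 26.9, 31.4 and 33.1 to 173, 197 and 175 TPM (2.08 ± 0.09), and ATG8B (AT4G04620) from 8.31, 10.96 and 12.6 to 83.7, 88.0 and 80.8. The cargo receptor NBR1 (AT4G24690) went from 104, 124 and 131 to 677, 716 and 676 TPM (2.07 ± 0.08). Of 15 NAC factors of senescence and stress 13 rose and 0 fell (13 and 1 after scaling), led by ANAC087 (AT5G18270), from 1.597, 1.33 and 1.85 to 162, 191 and 180.2 TPM (5.65 ± 0.16). NAP, a known promoter of leaf senescence, was at 14.01 and 18.3 TPM on average and did not pass. Of 28 defense WRKY factors 25 rose and 1 fell (25 and 2 after scaling), by a median of 2.29, and WRKY75 (AT5G13080) went from 0.495, 0.632 and 0.407 to 172, 166 and 197 TPM (6.43 ± 0.14). WRKY22 was the member that fell, from 30.004 ± 5.01 to 19.7 ± 0.3996. The 3 genes of the N-hydroxypipecolate pathway, a signal of systemic resistance, all rose, the synthesis enzyme FMO1 (AT1G19250) from 0.0418, 0.134 and 0.259 to 36.1, 39.1 and 35.7 TPM (4.60 ± 0.21). Of 18 pattern-recognition receptors and receptor kinases 17 rose and 0 fell (16 and 0 after scaling). The wall-associated kinase WAK1 (AT1G21250) went from 13.0, 12.3 and 19.6 to 443, 533 and 542 TPM and CRK36 (AT4G04490) from 0.565, 0.640 and 0.509 to 135, 133 and 129.9 (5.95 ± 0.18), and the flagellin receptor FLS2, at 19.1 and 22.4 TPM on average, did not pass.

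Of 12 genes of mitochondrial retrograde signalling and alternative respiration 10 rose and 1 fell, where 56.1% and 28.8% of all loci did. Their median of 3.96 was the second highest of the lists with 8 or more members tested. The alternative oxidase AOX1A (AT3G22370), which bypasses part of the respiratory chain, went from 30.7, 32.4 and 24.7 to 629.5, 623 and 624 TPM (3.92 ± 0.09, adjusted p = 3.17e-13). AOX1D (AT1G32350) went from 0, 0.224 and 0.324 to 198, 189 and 218. The external dehydrogenase NDB2 (AT4G05020) went from 6.54, 5.23 and 4.41 to 177, 165 and 177, while the internal one, NDA1, known to follow light, fell from 58.3 ± 4.93 to 20.3 ± 3.04. Of 17 genes of protein folding in the endoplasmic reticulum 16 rose and 0 fell (14 and 1 after scaling), BZIP60 (AT1G42990), the factor of the unfolded protein response, from 49.9, 36.0 and 35.9 to 270.4, 276 and 305 TPM (2.33 ± 0.11). Of 11 heat shock genes 10 rose and 1 fell. HSP90.1 (AT5G52640) went from 6.32, 3.74 and 2.47 to 133, 165 and 149 TPM (4.46 ± 0.21), and the small heat shock protein HSP17.6A from 0.0908, 0.194 and 0.374 to 19.3, 34.9 and 38.6. Of 9 PDR-type ABCG transporters 5 rose and 1 fell (4 and 1 after scaling), where 56.1% and 28.8% of all loci did (41.9% and 39.1% after scaling). ABCG40 (AT1G15520) went from 1.64, 1.398 and 1.56 to 304, 322 and 369 TPM, and ABCG32 (AT2G26910), known for cuticle formation, fell from 66.0, 77.4 and 75.9 to 18.5, 16.2 and 16.8.

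**Figure D5:**
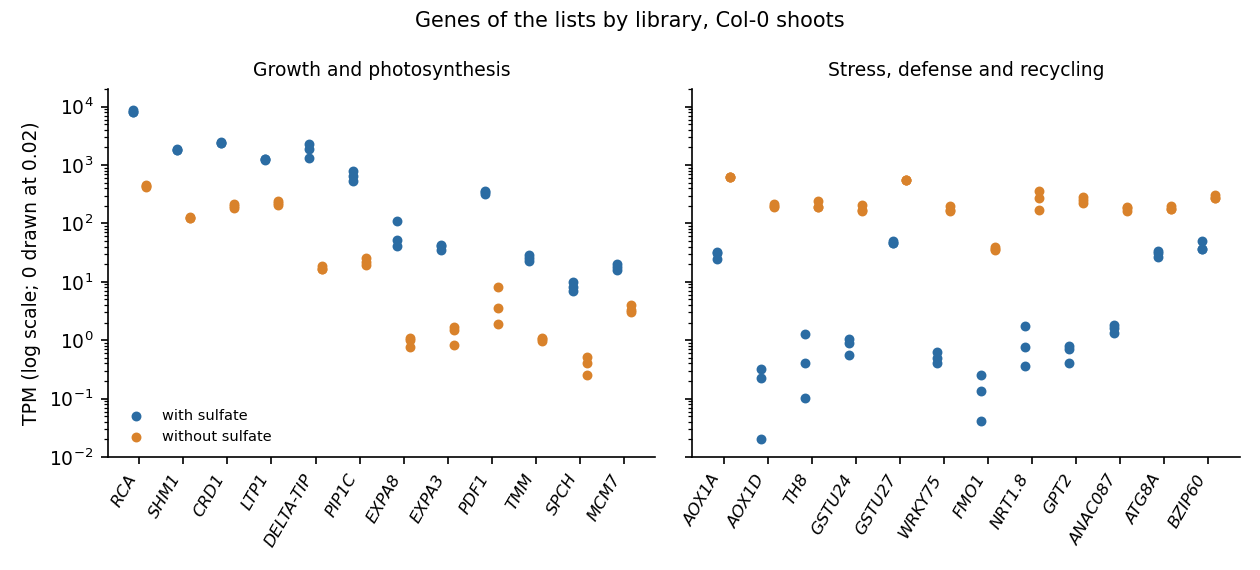
TPM (log axis, 0 drawn at 0.02) in each Col-0 library of 12 genes of photosynthesis, growth and the epidermis (left) and 12 genes of stress, defense and recycling (right). In all 24 the 3 libraries without sulfate lie apart from the 3 with it, below them on the left and above them on the right. The genes were chosen among members that passed, so this separation follows from the choice. Over all loci tested the groups did not overlap at 56.5% (higher) and 29% (lower).

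Nitrogen, sugar and amino acid genes moved in both directions, as did the loci tested as a whole. Of those, 56.1% rose and 28.8% fell (41.9% and 39.1% after scaling). Of 21 nitrogen genes 11 rose and 9 fell (10 and 9 after scaling). The plastid glutamine synthetase GS2 (AT5G35630) fell from 1555, 1599.7 and 1563 to 204, 195 and 186 TPM (-3.46 ± 0.05). The cytosolic GLN1;1 (AT5G37600) rose from 104.9, 113 and 86.6 to 776, 753 and 754 TPM (2.44 ± 0.09) and GLN1;3 (AT3G17820) from 44.7, 46.9 and 49.6 to 282, 291 and 275. With sulfate GS2 was the most abundant of these 3, and without sulfate GLN1;1 was. The nitrate transporter NRT1.7 (AT1G69870), known for export from old leaves, went from 31.6, 37.0 and 32.1 to 364, 374 and 387 TPM. NRT1.8 (AT4G21680), known for removal of nitrate from xylem, went from 0.367, 1.72 and 0.755 to 173, 268 and 364 (6.65 ± 0.27), with a wide spread without sulfate. Of 18 genes of starch and sugars 9 rose and 6 fell (6 and 8 after scaling). The hexose carrier STP13 (AT5G26340) went from 18.9, 32.6 and 19.3 to 608, 629 and 633 TPM and the cell wall invertase CWINV1 (AT3G13790) from 15.1, 25.4 and 17.37 to 331, 367 and 398. GPT2 (AT1G61800), which carries glucose 6-phosphate into plastids, went from 0.696, 0.788 and 0.403 to 281, 248.6 and 225 (6.82 ± 0.20). These 3 genes were low with sulfate. Another hexose importer of the list, STP1 (AT1G11260, 12.6% overlap), went the other way, from 578 ± 261 to 117 ± 28.3 TPM. APL1, a subunit of the enzyme that starts starch synthesis, fell from 160.2 ± 9.40 to 13.5 ± 0.840 (37.2% overlap). Of 16 genes of branched-chain amino acid, lysine and proline breakdown or turnover 8 rose and 7 fell (4 and 8 after scaling). The lysine-degrading LKR rose from 13.2 ± 4.82 to 113 ± 12.5 TPM, and the methylcrotonyl-CoA carboxylase subunit MCCA (12.4% overlap) fell from 87.3 ± 27.0 to 22.1 ± 0.652. The proline synthesis enzyme P5CS1 fell from 116 ± 16.5 to 25.3 ± 0.491 TPM.

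Of 21 iron genes 8 rose and 7 fell (7 and 9 after scaling), against 56.1% and 28.8% of all loci (41.9% and 39.1% after scaling). The ferric reductase FRO6 (AT5G49730) fell from 166, 148 and 132 to 0.129, 0.301 and 0.412 TPM (-7.33 ± 0.23, adjusted p = 1.88e-11), and FRO7 (AT5G49740), that of chloroplasts, from 53.1, 43.7 and 32.9 to 5.67, 5.23 and 3.45. The vacuolar exporter NRAMP3 (AT2G23150) rose from 8.23, 8.09 and 8.27 to 101, 105.03 and 108 TPM and the carrier of nicotianamine-bound metals YSL1 (AT4G24120) from 17.0, 18.5 and 14.03 to 169, 148 and 143. Of the nicotianamine synthases, NAS3 rose from 17.1 ± 7.75 to 95.8 ± 17.8 TPM and NAS4 fell from 5.60 ± 2.297 to 0.707 ± 0.413. The iron deficiency factors BHLH38 (35.7% overlap) and BHLH39 averaged under 0.5 TPM in both groups and did not pass, and BHLH101 fell from 3.27 ± 1.09 TPM to 0 in all 3 libraries.

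Hormone and clock lists were mixed and did not all follow the loci tested as a whole. Of those, 56.1% rose and 28.8% fell (41.9% and 39.1% after scaling). Aux/IAA genes fell more often than that, and ethylene genes rose more often. Of 22 Aux/IAA repressors of auxin signalling 5 rose and 11 fell (4 and 14 after scaling). IAA7 (AT3G23050) fell from 124, 139 and 128 to 25.4, 25.4 and 24.6 TPM and IAA8 (AT2G22670) from 169, 164 and 163 to 19.1, 17.5 and 22.7. In contrast IAA26 rose from 21.9 ± 1.87 to 53.1 ± 1.28 TPM, IAA18 from 43.0 ± 2.90 to 87.0 ± 3.36 and IAA28 from 3.94 ± 0.132 to 13.0 ± 1.18. Of 8 type-A response regulators of cytokinin 2 rose and 4 fell (1 and 4 after scaling), ARR9 from 32.1 ± 6.08 to 4.70 ± 0.121 TPM with 10.0% overlap. Of 17 ethylene genes 13 rose and 2 fell (10 and 4 after scaling). The synthesis gene ACS2 (AT1G01480) went from 0.155, 0.454 and 0.160 to 59.1, 53.6 and 72.9 TPM. SLIM1 (EIL3, AT1G73730) rose from 11.1, 10.4 and 12.2 to 35.4, 34.3 and 35.8 (1.11 ± 0.08), EIN3 (AT3G20770) from 113 ± 11.5 to 215 ± 3.23, and EIL1 (AT2G27050) fell from 80.2 ± 2.88 to 41.6 ± 2.08. Of 22 clock genes 9 rose and 9 fell (8 and 13 after scaling). Of the evening genes TOC1 (AT5G61380), GI (AT1G22770) and FKF1 (AT1G68050) rose, FKF1 from 0.924, 2.28 and 2.82 to 41.4, 39.0 and 39.4 TPM. The morning-phased coactivator LNK2 (AT3G54500) fell from 239, 218 and 207 to 44.3, 34.5 and 33.7 and RVE4 (AT5G02840) from 69.9 ± 5.19 to 19.7 ± 1.27. The time of day of harvest is not given in the labels, and its part in these values was not tested.

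The response of Col-0 differed from that of cdk8-1 at 5171 loci in the interaction test of limma (27% of those tested). At 4452 of these the interaction had the sign of the Col-0 response, that is, Col-0 moved further in its direction than cdk8-1, and at 411 the opposite sign, among loci called in Col-0. Of the sulfur limitation core, 1 of 11 members passed. That member was GGCT2;1, with an interaction of -1.47, so it rose less in Col-0. The core was uneven with sulfate, at a summed 764, 377 and 218 TPM in Col-0 and 643, 321 and 188 in cdk8-1. Differences between genotypes are thus harder to detect in it, and the count does not show that its responses were alike. Of other lists, 13 of 14 Calvin cycle genes, 17 of 20 chlorophyll synthesis genes and 10 of 11 heat shock genes passed.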

How the data were processed

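Total RNA of shoots (NucleoSpin RNA Plant) was made into libraries with the NEBNext Ultra II Directional kit, per the labels' protocols. The authors deposited TPM values (reads per transcript length, scaled to a common total, which 1 of 12 columns exceeds at 1004125) for 32833 loci. The submitters' processing notes name STAR 2.7.11b, featureCounts 2.0.8 and DESeq2 1.46, with no role, and the genome build is not given in the sources used here. Reads recovered from TPM and exon length were whole, within 0.01 read, for 25759 loci with the annotated length and 141 with a searched one. They gave the depths and an alternative fit. All 285 organelle loci are at 0.

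The main test was limma 3.58.1 (R 4.3.3) with a mean-variance trend on log2(TPM + 1), with 4 group means over all 12 libraries. The pseudocount of 1 understates changes of low genes. Loci with a mean of at least 1 TPM were tested, with Benjamini-Hochberg adjustment over all 19127 at 0.05. In simulated data of 18045 loci, 99 of 100 2-fold and 100 of 100 4-fold changes were found, with 13 false calls. Only those loci were changed there, all of them well read, with a fixed spread and no shift of the pool. The simulation thus checks that the code works and does not give the error rates in these data, where most loci changed. Median-of-ratios and quantile scaling, other pseudocounts and minimums, Col-0 alone, a replicate block, voom on recovered reads and leaving out each library were tried.

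The members and lists were chosen with earlier results of these data known. Genes were named by rule: the 15 largest rises and falls that passed without overlap, the 10 largest gains and losses of TPM, up to 4 passing members in each direction per list by smallest p (all of short lists), the 10 most uneven with sulfate at 10 TPM or more, all sulfur core and transporter genes, and the 5 largest interactions in each direction. Members named as not passing, MT1C, MT3, CAT2 and STP1 were picked after their values were seen. Names and sequences are RefSeq TAIR10.1, which matched 32548 loci (99.1%).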

Additional observations from a re-analysis of the deposited data

Results flagged for a closer look

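Of the 5171 loci whose response differed between genotypes in limma's interaction test, the 5 with the largest difference in each direction are given here. The interaction is the Col-0 response minus the cdk8-1 response in log2(TPM + 1).

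In 5 genes the response of Col-0 lay above that of cdk8-1. ABCG40, a PDR-type transporter known for abscisic acid import, had the largest interaction, 5.79 ± 0.23 (SE, adjusted p = 4.52e-08). It reached 304, 322 and 369 TPM without sulfate in Col-0 and 3.63, 4.10 and 6.63 in cdk8-1, while all 6 libraries with sulfate stayed under 2 TPM. TH8, a thioredoxin h, had 4.18 ± 0.36, with 192, 189.5 and 239 TPM without sulfate in Col-0 and 8.93, 7.13 and 9.003 in cdk8-1. AT2G15780, annotated as a cupredoxin, had 4.14 ± 0.33, with 12.7, 16.7 and 28.9 TPM against 0, 0.143 and 0.0854. The tau class glutathione transferase GSTU3 had 4.06 ± 0.29, with 77.7, 80.6 and 116 TPM against 2.78, 3.97 and 5.90. SAG29, a sugar transporter of senescing leaves, had 3.94 ± 0.46. It went from 3.32, 3.16 and 8.37 to 60.5, 68.0 and 60.3 TPM in Col-0 and stayed within overlapping ranges in cdk8-1, at 14.5, 6.78 and 9.37 and 6.05, 5.43 and 10.8.

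In the other 5 the response of Col-0 lay below that of cdk8-1. The light-harvesting gene LHCB2.3, with 40.6% of its exons overlapped, had -5.12 ± 0.26 (adjusted p = 2.43e-07). Its level without sulfate was 1.75, 1.63 and 1.41 TPM in Col-0 and 79.5, 103 and 51.0 in cdk8-1, from means of 1537 and 1290.3 with sulfate. GASA6, a gibberellin-regulated peptide gene with 22.6% overlap, had -4.19 ± 0.32, with 1.85, 1.52 and 2.11 against 30.1, 71.8 and 55.0 TPM without sulfate. AT2G10940, annotated as a lipid-transfer type protein, had -3.89 ± 0.48, with 10.3, 5.55 and 24.8 against 199, 185 and 165. AT2G33850, annotated as E6-like, had -3.70 ± 0.38, with 0.291, 0.0756 and 1.399 against 22.1, 17.0 and 11.4. These 4 fell in both genotypes and further in Col-0. AT1G30170, a gene of unknown function, had -4.05 ± 0.26, being low without sulfate in Col-0 at 1.42, 0.807 and 0.363 TPM and at 32.5, 35.6 and 31.1 in cdk8-1.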

How the results depend on the processing

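Counts of loci at least 2-fold higher depended on scaling, with 3695 after median-of-ratios and 3831 after quantile scaling against 5789 as deposited, while those at least 2-fold lower numbered 4443 and 4221 against 3314, so scaling turned the balance from mostly higher to mostly lower. Of 675 named or listed genes, median-of-ratios scaling reversed 4, ended 30 calls and added 26, and quantile scaling reversed 2, ended 29 and added 25. Of these SOX (AT3G01910) was described above, at -0.11 after median-of-ratios scaling with an adjusted p of 0.0369 in limma. The cysteine difference was 0.0393 percentage points without the 100 most abundant loci and 0.0281 without photosynthesis-related loci, and the methionine difference 0.0903 and 0.0555. Leaving out 1 library at a time gave 10461 to 10578 loci higher, 5316 to 5437 lower, 5763 to 5837 and 3298 to 3345 at 2-fold, 4279 to 5259 interactions and 540 to 547 of 549 list calls. It gave cysteine differences of 0.169 to 0.177 and methionine differences of 0.0482 to 0.0512 percentage points, and it ended 6 to 13 gene calls. With the replicate block 10806 loci were higher and 5557 lower, the interaction passed at 5718 loci against 5171, and no call of these genes was lost. In deviations from group means, same-numbered Col-0 libraries of the 2 supplies correlated at 0.156, 0.0163 and 0.0822 in replicates 1 to 3. Those of the 2 genotypes with sulfate correlated at 0.305, -0.000109 and 0.157. With sulfate, Col-0 replicate 1 correlated at -0.0999 and -0.232 with cdk8-1 replicates 2 and 3, below its same-numbered value. Col-0 replicate 2 correlated at 0.108 with cdk8-1 replicate 3, above its own. Not every same-numbered pair passed 0.1, so the main fit did not take the labels' numbers as pairs. It therefore leaves out any replicate effect shared between groups. With sulfate the summed sulfur limitation core ran in the same order over replicates 1 to 3 in both genotypes. It was at 764, 377 and 218 TPM in Col-0 and 643, 321 and 188 in cdk8-1. The core's interaction count of 1 of 11 comes from this fit without a block. Levels below about 3 reads, 0.2 to 0.3 TPM in a gene of 1 kilobase, cannot be told from 0.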

Other observations

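Of the 10 loci most uneven among the 3 Col-0 libraries with sulfate, 4 have not been described above. ORA47, a jasmonate-responsive transcription factor of the ERF family, was at 26.7, 8.34 and 5.53 TPM with sulfate and 1.91, 0.686 and 0.588 without, and at 6.20, 3.60 and 1.73 with sulfate in cdk8-1. Replicate 1 with sulfate was the highest for ORA47 in both genotypes, as for most sulfur limitation genes. AT2G04965, which carries no product name in the annotation, was at 18.21, 1.29 and 20.002 TPM with sulfate, low in replicate 2, and at 107, 131 and 153 without. The precursor locus of the microRNA MIR5026 was at 60.2, 51.3 and 9.41 TPM with sulfate and 13.3, 11.5 and 25.01 without, and it did not pass (adjusted p = 0.15 in limma). AT2G05315, also without a product name, was at 19.7, 12.4 and 4.78 TPM with sulfate and 1.28, 4.004 and 7.20 without. Why the libraries with sulfate differ in this way was not tested.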
